A study of Mus musculus with 20 samples.

Results

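The 289 megabase windows described here are the stretches of the mouse autosomes where peaks of the transcription factor TFIIIC lie closest together. Chromosomes 1 to 19 were divided into 2482 windows of 1 Mb, TFIIIC peaks were counted in each by their midpoint, and windows averaging at least 210 peaks over the 4 TFIIIC libraries were kept. They are 11.6% of the autosomal windows, and the other 2193 windows served for comparison. The windows were chosen by their TFIIIC counts in all 4 libraries, so the surplus of TFIIIC in them is a description and was not tested. Tests were made on H3K27me3 and on the condensin II subunits CAP-D3 and CAP-H2, which played no role in the choice, and on the difference between genotypes. For TFIIIC that difference uses the same counts as the choice.

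TFIIIC is a multi-subunit factor that binds the internal promoter elements of tRNA genes and hands them to RNA polymerase III, and it also occupies sites that lack the polymerase. Its largest subunit, TFIIIC-220, was the target of the antibody. Condensin II is the SMC complex that folds and compacts chromosomes, is nuclear throughout the cell cycle, and carries CAP-D3 and CAP-H2 as non-SMC subunits. H3K27me3 is the histone mark that Polycomb repressive complex 2 places over silent developmental genes. The retinoblastoma protein pRb binds partner proteins through its LXCXE cleft, which the Rb1L/L alleles alter.

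Chromatin was immunoprecipitated from mouse embryonic fibroblasts (MEFs), primary cells grown from E13.5 embryos of the C57BL/6 strain and harvested at passage 4 while cycling asynchronously, either wild type (WT) or Rb1L/L; no other allele or agent is named in the labels. TFIIIC and H3K27me3 had 2 libraries per genotype and each condensin II subunit had 1, so 12 of the 20 samples have a peak list and the 8 input samples have none here. TFIIIC chromatin was fixed in 1% formaldehyde alone, whereas H3K27me3, CAP-D3 and CAP-H2 chromatin was first treated with 2 mM EGS, a longer protein crosslinker. The labels do not say whether libraries came from separate embryos or cultures, so the p-values reflect only how far these libraries differ, and that spread may be technical. Peak lists hold no expression values against which the cell type could be checked.

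Sequencing depth in reads was not stated in the sources used here, so the length of a list is the only measure of depth. The TFIIIC lists held 200350 and 239960 peaks in WT and 294135 and 301874 in Rb1L/L cells. The H3K27me3 lists held 24741 to 56396 peaks, the CAP-D3 lists 17576 (WT) and 13233 (Rb1L/L), and the CAP-H2 lists 42737 and 43151. Because the TFIIIC lists of the genotypes differ in length without overlap, genotypes were compared by each window's share of its library's peaks rather than by its count.

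The dense windows formed the upper end of a continuous distribution. The median autosomal window held a mean of 74.6 TFIIIC peaks and the highest held 375.25. No gap separated the windows just inside the threshold, at means of 210, 210 and 210.25, from those just outside it, at 209.5, 209.25 and 209.25. The members held 120 to 374 peaks in WT replicate 1 (median 198), 168 to 397 in WT replicate 2 (median 247), 220 to 431 in Rb1L/L replicate 1 (median 291) and 209 to 443 in Rb1L/L replicate 2 (median 299). The WT lists are the shorter ones, and 108 and 239 members reached 210 peaks in them, against 289 and 288 in the Rb1L/L lists. Ranking the windows in each library alone placed 263, 275, 274 and 272 of the 289 members among its own 289 highest windows, in the order WT 1, WT 2, Rb1L/L 1 and Rb1L/L 2.

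**Figure D1:**
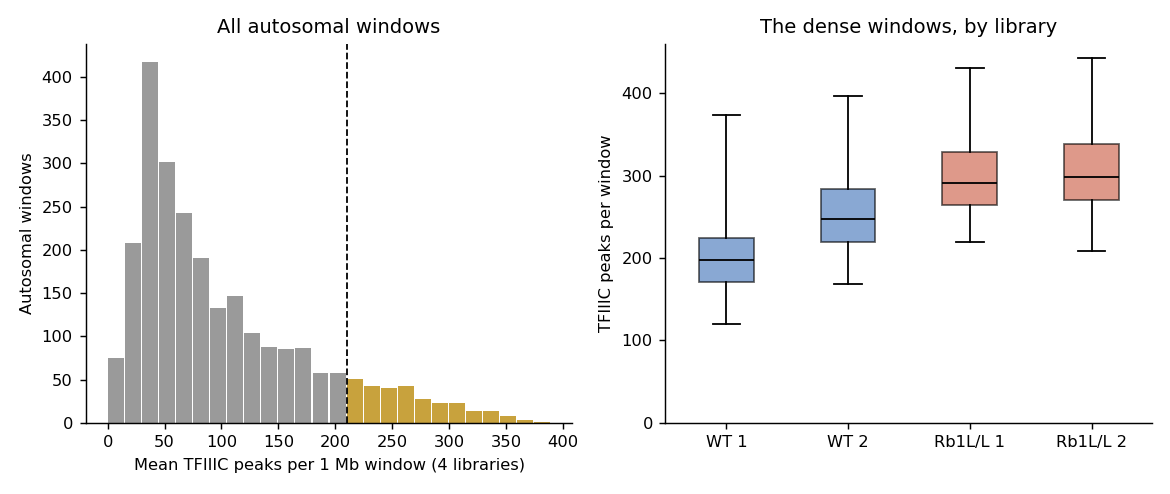
Left, autosomal 1 Mb windows by their mean number of TFIIIC peaks, with the threshold of 210 as a dashed line and the 289 dense windows in gold. Right, TFIIIC peaks per dense window in each library (box, middle 50% of windows; line, median; whiskers, lowest and highest window), with medians of 198 and 247 in WT and 291 and 299 in Rb1L/L cells.

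Within the dense windows TFIIIC peaks were near one another almost everywhere. The median gap between neighbouring peaks was 2958 and 2481 bp in the WT libraries and 2320 and 2262 bp in the Rb1L/L libraries, against 4735 to 7377.5 bp in the other windows. Of the 5780 bins of 50 kb in the dense windows, 17 to 23 had no TFIIIC peak in a given library, which is 0.294 to 0.398%, against 10.8 to 16.5% elsewhere. TFIIIC peaks covered 15.9 and 21.9% of the dense bases in WT and 31.0 and 32.3% in Rb1L/L cells. The same 4 libraries covered 4.61, 5.58, 7.88 and 7.88% of the other windows. Peaks were also somewhat wider in the dense windows, with medians of 651, 704, 820 and 821 bp against 639, 668, 747 and 735 bp.

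The members were unevenly spread over the chromosomes. Chromosome 5 held 33, chromosome 4 held 31, chromosome 2 held 29 and chromosome 11 held 28 of its 122 windows. Chromosome 3 had 2 among its 160 windows, chromosome 18 had 3, and chromosomes 13 and 14 had 4 each. The X chromosome lay outside the rule, and none of its 167 windows would have reached 210: its highest mean was 123 and its median 38.25.

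Dense windows mostly lay side by side: 228 of the 289 had a dense neighbour, and 158 (54.7%) stood in 28 runs of 3 or more. The longest runs spanned 15 windows each, chr4:127000001-142000000 and chr5:111000001-126000000 (mm9). Chromosome 2 had a run of 9 windows at chr2:25000001-34000000, with a mean of 311 TFIIIC peaks per window. Runs of 8 windows stood at chr4:147000001-155000000, chr8:121000001-129000000, chr11:113000001-121000000, chr15:81000001-89000000 and chr17:24000001-32000000. Of the 190 windows that are among the last 10 of their chromosome, 56 (29.5%) were dense. The first 10 windows of the 19 chromosomes, next to the centromeres, held 10 dense windows in all. Windows without assembled sequence, which can hold no peak, were not set aside in either count. The part of such gaps in this contrast was not tested.

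By the mean over the 4 libraries the densest window was chr8:124000001-125000000, with 320 and 397 peaks in WT and 386 and 398 in Rb1L/L cells. Next came chr4:152000001-153000000, with 252, 343, 431 and 443 peaks in the same order of libraries, and chr17:27000001-28000000, with 321, 384, 374 and 380. In the first and the last of these WT replicate 2 reached the Rb1L/L counts, whereas in the chromosome 4 window both WT counts lay below both Rb1L/L counts, as the lengths of the lists do. The most thickly covered window was chr10:80000001-81000000, where peaks of Rb1L/L replicate 2 spanned 65.0% of the bases; it held 374, 371, 350 and 336 peaks.

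Peaks of every other antibody were also concentrated in the dense windows. The number of H3K27me3 peaks per dense window had medians of 27 and 42 in WT and 46 and 54 in Rb1L/L cells, against 3, 7, 6 and 9 in the other windows. Mean H3K27me3 peaks per window were 4.11-fold and 3.31-fold higher in dense than in other windows in WT, and 3.70-fold and 3.29-fold higher in Rb1L/L cells. All 4 libraries were higher in the dense windows, by 1.84 ± 0.15 on the log2 scale (SD, n = 4; two-sided exact sign-flip permutation test over libraries, p = 0.125, the smallest 4 libraries allow). The ratio did not differ between the genotypes beyond the spread of the replicates: Rb1L/L minus WT was -0.08 on the log2 scale (exact permutation p = 0.667, where the smallest possible is 0.333). Between 30.3 and 35.2% of autosomal H3K27me3 peaks lay in this 11.6% of windows.

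CAP-D3 had a median of 14 peaks per dense window in WT and 11 in Rb1L/L cells, against 5 and 3 elsewhere. Its mean was 2.70-fold higher in dense windows in WT (95% Poisson interval 2.61 to 2.79) and 3.01-fold higher in Rb1L/L cells (2.90 to 3.13). CAP-H2 had medians of 30 and 31 peaks per dense window against 13 and 13, and was 2.19-fold (2.15 to 2.25) and 2.13-fold (2.08 to 2.18) higher. With 1 library per genotype these intervals cover counting error only, and the genotypes were not tested against each other. Over the 8 lists that had no part in the choice, the log2 ratio of dense over other windows was 1.58 ± 0.34 (SD, n = 8), and it was above 0 in 8 of 8 (two-sided exact sign-flip permutation p = 0.00781, the smallest 8 lists allow). These lists are not independent: several are of the same antibody, and CAP-D3 and CAP-H2 belong to 1 complex. The labels also name 1 input for CAP-D3, CAP-H2 and H3K27me3 replicate 2 in WT, and 1 for CAP-D3, CAP-H2 and H3K27me3 replicate 1 in Rb1L/L cells. The permutation p therefore does not stand for 8 independent samples.

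**Figure D2:**
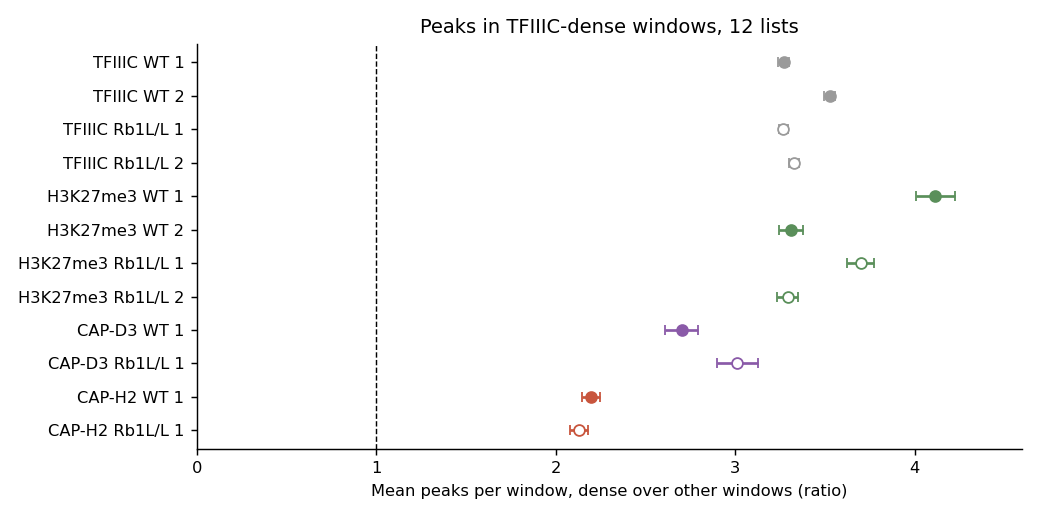
Ratio of mean peaks per window, dense over other autosomal windows, for the 12 lists (horizontal axis, linear ratio; filled, WT; open, Rb1L/L; bars, 95% Poisson intervals; dashed line, no difference). The grey TFIIIC points chose the windows and are shown for scale; the other 8 lists lie between 2.13 and 4.11, with H3K27me3 highest and CAP-H2 lowest.

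The difference was gradual along the TFIIIC scale, with no step at the threshold. The 287 windows with a mean of 150 to under 210 TFIIIC peaks had a median of 27.75 H3K27me3 peaks (mean of 4 libraries), 9.5 CAP-D3 peaks and 24 CAP-H2 peaks (each the mean of 2 libraries). The 93 members below 240 TFIIIC peaks had 38.75, 10.5 and 28.5. The 63 members at 300 or more had 50.25, 15.5 and 37.5. The order was not unbroken: the 51 members between 270 and 300 TFIIIC peaks had 41.25, 12 and 25.5, below the 44.25, 13.25 and 33.5 of the 82 members between 240 and 270.

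**Figure D3:**
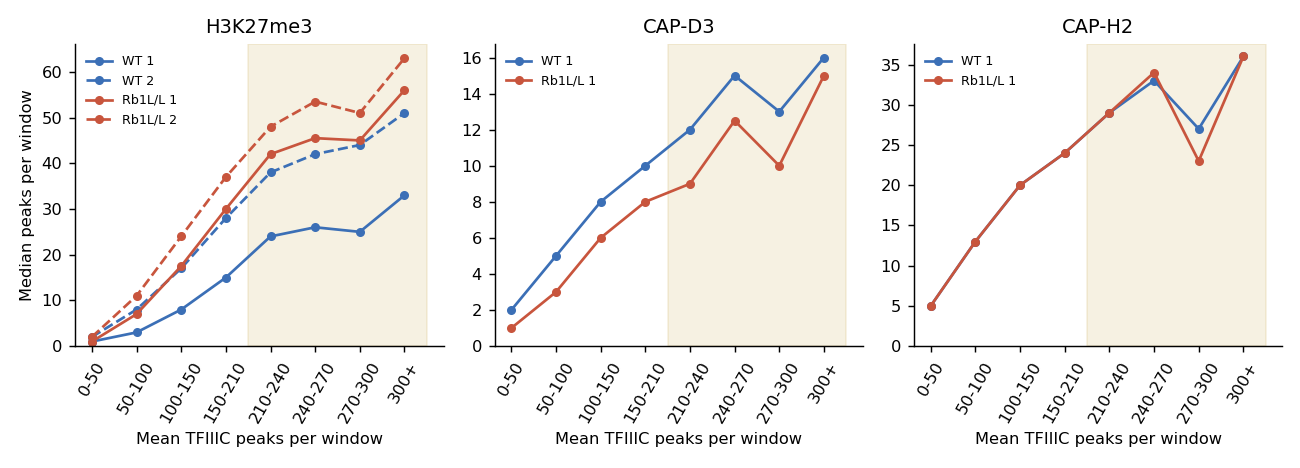
Median peaks per window (vertical axis, number of peaks) of H3K27me3, CAP-D3 and CAP-H2 in classes of the mean TFIIIC count (horizontal axis); blue, WT; red, Rb1L/L; dashed, replicate 2; the shaded classes are the dense windows. Each line is higher in the last class than in the first, and all but H3K27me3 WT 2 dip in the class from 270 to 300.

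Single dense windows varied widely in what else they held. At or above the autosomal 90th percentile stood 127 members (43.9%) for H3K27me3, where 10.1% of autosomal windows stand. For CAP-D3 there were 144 members (49.8%), against 10.8% of autosomal windows. For CAP-H2 there were 114 (39.4%), against 10.1%. All 3 were at or above that level in 46 members, out of 63 such windows on the autosomes. At the other end, 15 members fell below the autosomal median for H3K27me3, 15 for CAP-D3 and 33 for CAP-H2.

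Among the members, TFIIIC number and H3K27me3 number were only weakly related: Spearman coefficients of the 16 pairs of libraries ran from 0.05 to 0.19 (n = 289 windows, which share libraries and are not independent). The rule narrows the TFIIIC range among members, which bears on these coefficients. Over 2126 other windows averaging at least 5 TFIIIC peaks the same pairs gave 0.61 to 0.68. CAP-D3 and CAP-H2 counts followed each other, with coefficients of 0.73 to 0.77 over 4 pairs. The members' ranking was closely repeated between genotypes for CAP-H2 (0.96), CAP-D3 (0.90) and H3K27me3 (0.92 to 0.96). TFIIIC against CAP-D3 ranged from -0.02 to 0.49 depending on the library, a spread that the genotype comparison below takes up.

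By the mean of 4 libraries the members richest in H3K27me3 were chr8:123000001-124000000, with 88 and 135 peaks in WT and 141 and 149 in Rb1L/L cells, and chr2:28000001-29000000, with 68, 130, 131 and 165. By the mean of both lists chr7:52000001-53000000 had the most CAP-D3 peaks, 48 in WT and 40 in Rb1L/L cells, with 71 and 65 CAP-H2 peaks. It was followed by chr8:126000001-127000000, whose CAP-D3 count was 58 in WT and 28 in Rb1L/L cells. By the mean of both lists CAP-H2 was most frequent in chr2:27000001-28000000, with 110 peaks in WT and 93 in Rb1L/L cells beside 12 and 9 CAP-D3 peaks, and in chr7:119000001-120000000, with 99 and 103 beside 15 and 16. The last of these was nearly free of H3K27me3, with 0 and 2 peaks in WT and 7 and 6 in Rb1L/L cells. The subunits of condensin II therefore did not keep a fixed ratio of peak numbers across dense windows.

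H3K27me3, CAP-D3 and CAP-H2 were all below their autosomal medians in 7 members, out of 836 such autosomal windows. The window with the second highest mean TFIIIC count, chr4:152000001-153000000, was one of them: it had 1 and 3 H3K27me3 peaks in WT and 3 and 2 in Rb1L/L cells, 0 and 1 CAP-D3 peaks, and 2 and 0 CAP-H2 peaks. Its TFIIIC peaks were spread over the whole window, with 8 to 19 in each 50 kb bin of WT replicate 1 and 16 to 26 in those of Rb1L/L replicate 2. The neighbouring windows chr15:86000001-87000000 and chr15:87000001-88000000 held 197, 244, 311 and 325 and 156, 200, 282 and 291 TFIIIC peaks. The first had 1 H3K27me3 peak in each library, 2 and 2 CAP-D3 peaks and 3 and 3 CAP-H2 peaks, and the second had no CAP-D3 peak in either genotype. The remaining 4 were chr2:178000001-179000000, chr4:127000001-128000000, chr5:142000001-143000000 and chr12:20000001-21000000. Some of these were only just below a median: chr4:127000001-128000000 had a mean of 8 H3K27me3 peaks, where the autosomal median is 8.5, and chr5:142000001-143000000 had 13 and 15 CAP-H2 peaks, where it is 14.5.

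By raw share, CAP-D3 peaks in dense windows more often coincided with a CAP-H2 peak than those elsewhere. The same held for coincidence with a CAP-D3 peak of the other genotype. CAP-D3 peaks were overlapped by a CAP-H2 peak of the same genotype in 65.7% of cases in WT dense windows (exact 95% binomial interval 64.3 to 67.1%) and in 52.6% in the other windows (51.8 to 53.5%). In Rb1L/L cells the shares were 71.5% (70.0 to 72.9%) and 64.5% (63.5 to 65.5%). CAP-H2 peaks covered 3.75% of the dense bases in WT and 1.56% of the others, and 3.62 and 1.54% in Rb1L/L cells, which bears on these shares. The WT CAP-D3 peaks were overlapped by an Rb1L/L CAP-D3 peak in 65.1% (dense) and 49.5% (other), and the Rb1L/L ones by a WT peak in 79.1 and 67.1%. For CAP-H2 the corresponding shares were close, 72.4 and 71.0% for WT peaks and 74.4 and 70.3% for Rb1L/L peaks. CAP-D3 peaks covered 1.30% of the dense bases and 0.435% of the others in WT, and 1.22 and 0.383% in Rb1L/L cells. From other to dense windows, the cover of CAP-H2 and of CAP-D3 rose by a larger factor than the CAP-D3 shares did. CAP-D3 peaks were also wider in dense windows, with medians of 743 against 610 bp in WT and 869 against 786 bp in Rb1L/L cells. CAP-D3 peaks were overlapped by H3K27me3 in 5.34 and 7.20% (dense) and 4.05 and 5.59% (other) by the WT H3K27me3 lists, and in 8.93 and 6.56% and 7.70 and 6.65% by the Rb1L/L ones, so the last pair was not higher in dense windows. H3K27me3 covered 2.90 to 6.57% of the dense bases and 0.705 to 1.81% of the others.

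H3K27me3 peaks of the 4 libraries merged into 23352 regions in the dense windows, of which 2864 (12.3%, 11.8 to 12.7%) had a peak in every library. In the other windows 4598 of 62488 (7.36%, 7.15 to 7.57%) did. The dense windows thus held 38.4% of the H3K27me3 regions found throughout. The H3K27me3 peaks overlapped by TFIIIC were 17.6, 27.4, 39.9 and 43.5% in dense windows for the pairs of libraries with the same genotype and number, against 9.65, 12.01, 18.3 and 18.6% elsewhere. TFIIIC covered 15.9, 21.9, 31.0 and 32.3% of the dense bases and 4.61, 5.58, 7.88 and 7.88% of the others. From other to dense windows, cover rose by a larger factor than the overlap in every pair. Any overlap of a whole peak counted, which is not the same measure as covered bases.

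The genotype comparison asked whether dense windows took a larger or smaller part of the TFIIIC peaks when the LXCXE cleft of pRb is altered. They held 30.1 and 31.7% of the autosomal TFIIIC peaks in WT, and 30.1 and 30.5% in Rb1L/L cells. The groups overlapped: the means were 30.9 ± 1.14% and 30.3 ± 0.27% (SD, n = 2 each; log2 difference -0.03; exact permutation p = 0.667). With equal numbers of top-scoring peaks from each list the log2 difference was 0.12, and by covered bases it was 0.09, so its direction depended on the measure. The rule averaged raw counts, which gives the longer Rb1L/L lists more weight, so members were not chosen evenly by genotype. TFIIIC differences between genotypes in single members are therefore read from the counts that chose them.

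By single window, no member passed the threshold for a changed TFIIIC share. limma on log2 shares called 0 of 2582 windows at a Benjamini-Hochberg adjusted p under 0.05 (0.0% of all), with 257 at an unadjusted p under 0.05 and a smallest adjusted p of 0.207. At that unadjusted level, 66 of the 289 members (22.8%) were lower in Rb1L/L cells, where 4.8% of all windows were. In the other direction there were 21 (7.27%), where 5.15% of all windows were. With equal numbers of top-scoring peaks this split turned to 9 lower (3.11%; 7.21% of all windows) and 58 higher (20.1%; 4.88% of all), so it describes the lists as deposited. In 114 members (39.4%; 21.4% of all windows) both Rb1L/L shares were below both WT shares, and in 72 (24.9%; 20.4% of all) both were above. The median log2 difference was -0.02 over the members and -0.02 over all autosomal windows averaging at least 5 peaks.

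The same fit on chromosomes 1 to 19 alone called 4 of 2415 windows (0.166%), and all 4 were dense windows with a lower share in Rb1L/L cells (limma, Benjamini-Hochberg adjusted p = 0.0313 to 0.0419). They were chr5:125000001-126000000, chr10:79000001-80000000, chr10:80000001-81000000 and chr17:56000001-57000000. The window chr10:80000001-81000000 held 1.89 and 1.55 of every 1000 TFIIIC peaks in WT and 1.20 and 1.12 in Rb1L/L cells, a log2 difference of -0.57 ± 0.10 (SE) in the fit over all chromosomes, where its limma adjusted p was 0.36. Its neighbour chr10:79000001-80000000 held 1.65 and 1.53 against 1.17 and 1.14 per 1000. At chr5:125000001-126000000 the shares were 1.54 and 1.49 against 1.10 and 1.12 per 1000. At chr17:56000001-57000000 they were 1.54 and 1.48 against 1.15 and 1.12 per 1000. The WT and Rb1L/L shares did not overlap in any of the 4, which were picked because they were called. Each held many CAP-D3 peaks, from 21 to 39 in WT and from 17 to 32 in Rb1L/L cells, where the median member held 14 and 11. These shares count peaks and not bases. In the order first named, TFIIIC cover of the 4 windows ran from 28.3 to 48.5%, 32.0 to 57.9%, 36.2 to 65.0% and 26.8 to 52.0% over the libraries. A change in their covered bases was not tested.

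At the opposite end, the highest log2 difference belonged to chr2:178000001-179000000, with 0.65 and 0.70 per 1000 in WT and 0.91 and 0.94 in Rb1L/L cells (log2 difference 0.45 ± 0.07 SE; limma adjusted p = 0.31). The next was chr4:127000001-128000000, with 0.66 and 0.79 against 0.99 and 0.95 per 1000. Neither passed the test. Both windows belong to the 7 below the median for every other antibody, and the log2 difference was above 0 in 7 of those 7, from 0.08 to 0.45. It was above 0 in 127 of all 289 members. The 7 were singled out for low counts that include condensin II, so this repeats the relation with condensin II given below. Leaving out WT replicate 2 raised the number of called members from 0 to 81, with 40 higher in Rb1L/L cells (13.8%; 6.43% of all windows) and 41 lower (14.2%; 3.21% of all); the remaining WT library was then assumed to vary like the others.

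The TFIIIC difference fell as the amount of condensin II in the window rose. Across the 289 members the log2 difference (Rb1L/L minus WT) was the lower the more CAP-D3 peaks a window held, with a Spearman coefficient of -0.69, and with CAP-H2 it was -0.68. With H3K27me3 it was -0.04. In 2126 other windows averaging at least 5 TFIIIC peaks, not matched to the members for TFIIIC count, the coefficients were -0.04, -0.11 and 0.18. These are descriptions over windows that share the same libraries, given without a p. Using either CAP-D3 list alone gave -0.67 for both, and taking covered bases in place of peak numbers gave -0.61.

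Putting the members into 4 equal classes by CAP-D3 shows where the genotypes part. The 73 members with the fewest CAP-D3 peaks (0 to 8.5, mean of both lists) held 66.8 and 74.9 of every 1000 autosomal TFIIIC peaks in WT, and 75.7 and 77.2 in Rb1L/L cells. The 72 richest (19 to 44) held 85.3 and 85.1 in WT, and 75.6 and 75.4 in Rb1L/L cells. WT was the lower genotype in the first and the higher in the last, with no overlap of libraries in either. These directions hold for the lists as deposited. With equal numbers of top-scoring peaks the difference over all members turned from negative to positive, and the direction within each class was not computed. The log2 differences over the 4 classes, from poor to rich, were 0.11, 0.01, -0.05 and -0.17. Members with both Rb1L/L shares below both WT shares numbered 4, 19, 34 and 57 over the same classes, and those with both above numbered 40, 19, 10 and 3, in classes of 72 or 73 members; over all windows 21.4% were below and 20.4% above.

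Within WT cells the richest class held 1.28 and 1.14 times the TFIIIC peaks of the poorest, and within Rb1L/L cells 1.00 and 0.98 times. Rb1L/L minus WT was -0.29 on the log2 scale, with both Rb1L/L libraries below both WT libraries (two-sided exact permutation p = 0.333, the smallest 2 against 2 libraries allow, so the design cannot pass 0.05). In the other windows the same contrast was -0.03. Classes made by CAP-H2 gave -0.27 and classes made by H3K27me3 gave -0.03. Ordering by CAP-D3 within classes of equal TFIIIC density gave -0.26, and equal numbers of top-scoring peaks gave -0.34. Covered bases in place of peak numbers gave -0.23. By that measure the richest class exceeded the poorest in both genotypes, by log2 ratios of 0.48 and 0.37 in WT and 0.23 and 0.17 in Rb1L/L cells. The even Rb1L/L classes therefore hold for peak numbers only.

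The length of the lists moved with this result. The ratio of rich over poor fell in the order of list length, from 1.28 in the shortest list to 0.98 in the longest, and the libraries of a genotype differed too: the log2 share of WT replicate 2 minus WT replicate 1 correlated with CAP-D3 at -0.42 over the members, and Rb1L/L replicate 2 minus replicate 1 at -0.19. With equal numbers of peaks taken from each list the contrast was as large, but the part of read depth and of single libraries in it was not tested. Without WT replicate 1 the contrast was -0.20, and without WT replicate 2 it was -0.37.

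**Figure D4:**
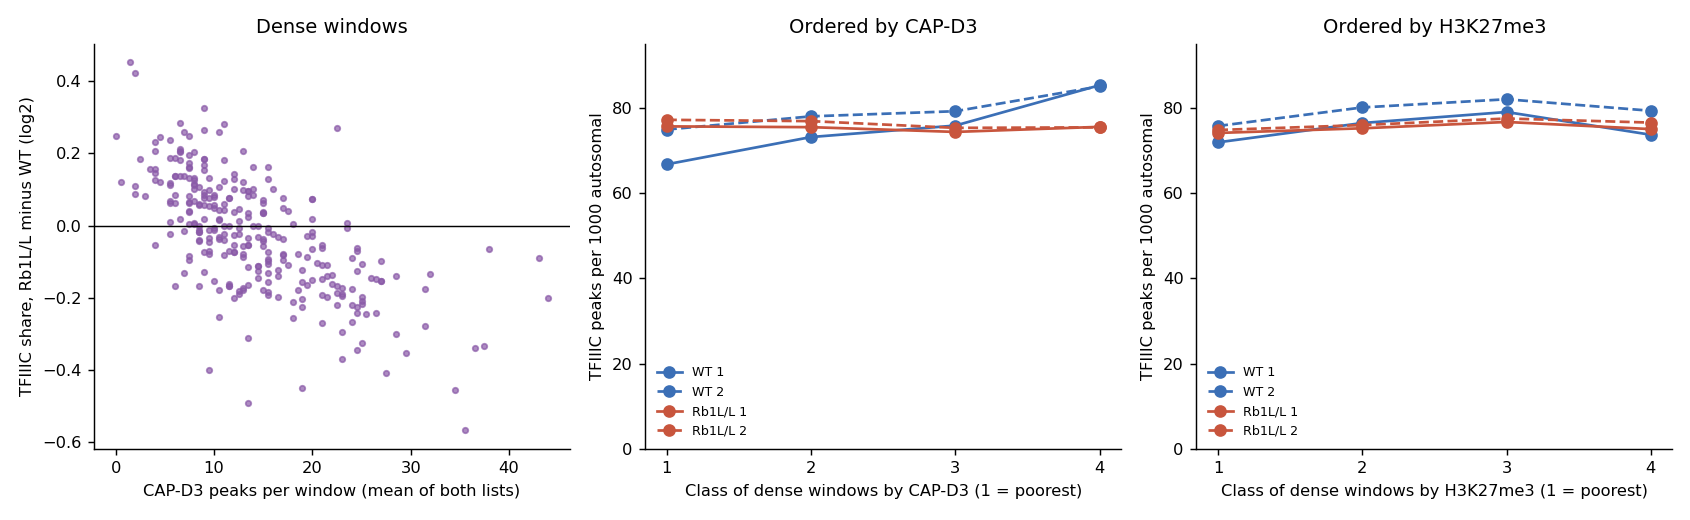
Left, each of the 289 dense windows by its CAP-D3 peaks (horizontal axis, mean of both lists) and the difference in log2 TFIIIC share, Rb1L/L minus WT (vertical axis). Middle and right, TFIIIC peaks per 1000 autosomal peaks in 4 equal classes of dense windows by CAP-D3 and by H3K27me3, per library: by CAP-D3 the WT lines climb to 85.3 and 85.1 while the Rb1L/L lines stay between 74.4 and 77.2, and by H3K27me3 no such divergence is seen.

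The share of CAP-D3 midpoints inside TFIIIC peaks also differed between the lists of the genotypes, in dense and in other windows alike. In WT, 25.5 and 22.0% of CAP-D3 midpoints in dense windows lay inside a TFIIIC peak (by TFIIIC replicate; mean 23.7 ± 2.46%, SD, n = 2), where TFIIIC covered 15.9 and 21.9% of the bases. In Rb1L/L cells the shares were 13.04 and 12.06% (12.6 ± 0.69%), although TFIIIC covered 31.0 and 32.3%. Counting any overlap in place of midpoints raised the mean shares to 41.3% in WT and 32.6% in Rb1L/L cells. Divided by the covered share of bases, midpoints reached 1.60 and 1.00 in WT, against 0.42 and 0.37 in Rb1L/L cells. In the other windows the ratio was 3.47 and 2.48 in WT, and 1.03 and 0.97 in Rb1L/L cells.

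CAP-H2 showed a smaller separation of the genotypes. In dense windows 25.0 and 25.5% of WT midpoints and 23.6 and 22.9% of Rb1L/L midpoints lay in TFIIIC peaks. With any overlap counted the means were 46.1 and 45.6%, nearly the same. TFIIIC covered 15.9 and 21.9% of the dense bases in WT and 31.0 and 32.3% in Rb1L/L cells. Relative to this cover, the midpoint ratios were 1.58 and 1.16 in WT and 0.76 and 0.71 in Rb1L/L cells, so the gap in ratio follows mostly from the cover. The genotypes were also apart in the other windows, at 2.13 and 1.66 in WT and 0.93 and 0.94 in Rb1L/L cells. In both subunits the WT and Rb1L/L midpoint values did not overlap, but the condensin II list of a genotype is 1 library counted against 2 TFIIIC libraries, so no test across genotypes was made. TFIIIC and condensin II come from differently fixed chromatin, and the part of fixation in these shares was not tested.

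**Figure D5:**
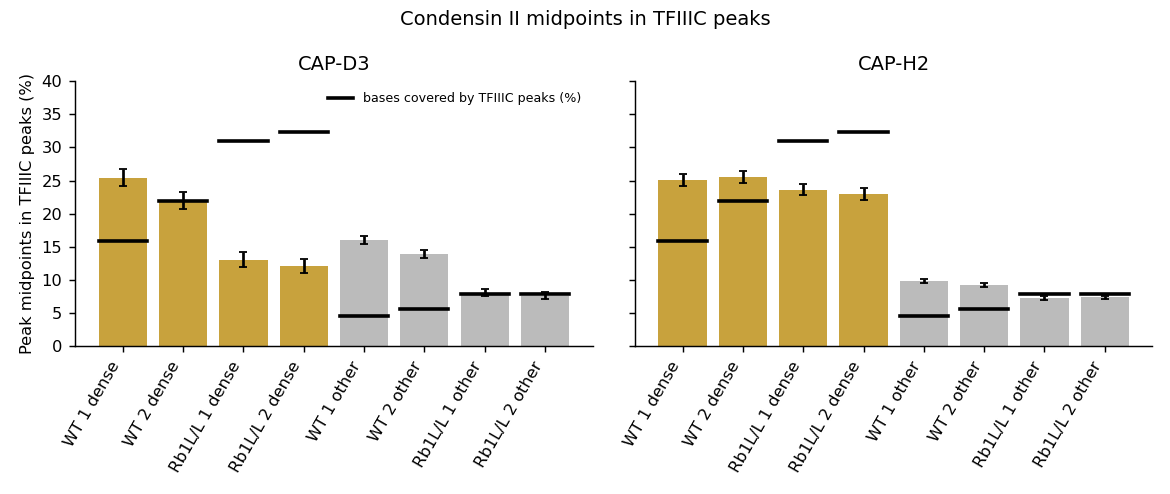
Percentage of CAP-D3 (left) and CAP-H2 (right) peak midpoints that lay in TFIIIC peaks of the same genotype, for each TFIIIC library, in dense (gold) and other (grey) windows; error bars, exact 95% binomial intervals; black lines, percentage of bases covered by TFIIIC peaks. In dense windows of Rb1L/L cells the CAP-D3 bars reach 13.04 and 12.06%, below the lines at 31.0 and 32.3%.

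Merging the TFIIIC peaks of the 4 libraries gave 107912 regions in the dense windows and 315101 elsewhere. Of the dense regions 22.5% were found in all 4 libraries, or 84.1 per window, against 16.3% and 23.4 per window elsewhere. Regions of both WT libraries and neither Rb1L/L library were 1.47% of the dense regions, and regions of both Rb1L/L libraries only were 10.1%; elsewhere these were 1.73 and 9.28%. A CAP-D3 peak of both genotypes overlapped 183 of the 1588 WT-only regions in dense windows (11.5%, exact 95% binomial interval 9.99 to 13.2%), 50 of the 10899 Rb1L/L-only regions (0.459%, 0.341 to 0.604%) and 717 of the 24310 regions of all libraries (2.95%, 2.74 to 3.17%). In the other windows the shares were 8.26, 0.123 and 1.29%. The WT-only regions were therefore the class most often at a CAP-D3 site shared by both genotypes, in dense and in other windows, although they were the narrowest of the 3, with a median of 839 bp against 914 and 1893 bp in dense windows.

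All 4 TFIIIC lists and all 4 condensin II lists shared 541 regions in the dense windows. The highest by their lowest TFIIIC score tied at 3100 in all 4 lists. Such ties were broken by width, so the width of those named follows from the choice. Among them were chr8:124343913-124353428, which is 9516 bp wide and lies in the window with the highest mean TFIIIC count, and chr10:80639331-80645666, in the window with the lowest log2 difference in TFIIIC share. Another, chr16:11143213-11144925, had a peak in all 12 lists, with the same score of 3100 in each, and the inputs were not examined there. In 137 regions both WT TFIIIC lists and all condensin II lists had a peak and neither Rb1L/L TFIIIC list did. The leading ones were chr17:34066067-34067974, chr8:119444892-119446123 and chr13:49747618-49749004, with no H3K27me3 peak in any library. At chr13:49747618-49749004 the authors' peak scores were 515 and 674 for TFIIIC in the WT lists, and 1791 (WT) and 3145 (Rb1L/L) for CAP-D3.

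No member passed the threshold for a changed H3K27me3 share. limma called 0 of 1557 windows for H3K27me3 (0.0%; 46 at an unadjusted p under 0.05), and 280 members were tested. Among these, 6 were higher in Rb1L/L cells at the unadjusted level (2.14%; 2.18% of all windows) and 2 lower (0.714%; 0.771% of all), shares close to those over all windows. Both Rb1L/L shares lay below both WT shares in 21 members (7.5%; 9.7% of all windows) and above in 56 (23.1% of all windows). Leaving out H3K27me3 WT replicate 2 gave 9 called members, 4 higher (1.42%; 3.52% of all windows) and 5 lower (1.78%; 1.83% of all). The median log2 difference over the members was -0.01 for H3K27me3, 0.14 for CAP-D3 and -0.01 for CAP-H2, against 0.08, 0.06 and -0.01 over all autosomal windows averaging at least 5 peaks. The CAP-D3 share was at least 2-fold lower in Rb1L/L cells in 3 of 272 members (1.8% of all windows), with no replicate check. They were chr2:165000001-166000000 with 11 peaks in WT and 3 in Rb1L/L cells, chr5:116000001-117000000 with 9 and 3, and chr11:118000001-119000000 with 16 and 5. No member was at least 2-fold higher for CAP-D3 (0.898% of all windows), and none of 283 was 2-fold changed in either direction for CAP-H2 (0.659% of all windows lower and 0.254% higher).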

How the data were processed

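Peak lists of 12 immunoprecipitated libraries were analysed; 8 input samples were not used. The submitters' processing notes name the mm9 build, Bowtie2 2.3.0 and MACS 1.4.0rc2, without settings; MACS is a peak caller. Each list holds the peaks of 1 library with a score, which the authors deposited without a column name; that program writes a multiple of the negative log10 of a p-value there. Scores ran from 50 upward, rank peaks within a list and depend on depth and input.

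Windows, shares and overlaps were computed with Python 3.11.15, numpy 2.4.6, pandas 2.3.3 and scipy 1.17.1. The log2 share per 1000 peaks of a library (pseudocount 0.5 peaks) was compared with limma 3.58.1 (R 4.3.3; variance trend, all 4 libraries of an antibody, no covariate, windows of all chromosomes averaging at least 5 peaks, Benjamini-Hochberg threshold 0.05). The limma step was tested on simulated data. Shares sum to a library's total, so a gain in one place lowers the rest. Exact tests permuted libraries and were two-sided. Intervals are 95% and cover counting error only.

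The members and lists were chosen with earlier results of these data known, and the classes by condensin II count after seeing them. Windows named in the text are the extremes of TFIIIC, H3K27me3, CAP-D3, CAP-H2 and the TFIIIC difference, those next to the threshold and the longest runs; the windows called on chromosomes 1 to 19, the 7 below the median for the other antibodies and the 3 with a CAP-D3 fold change were singled out after their values were seen. Coordinates are 1-based. Genes and sequences of these windows were not used here, as no annotation of mm9 was at hand. Alternatives were other thresholds, window origins, scores, equal peak numbers, covered bases, overlap rules, filters, pseudocounts, libraries left out and a replicate block.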

Additional observations from a re-analysis of the deposited data

How the results depend on the processing

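Among the values recomputed under an alternative, 111 were counted as kept, 48 as moved and 5 as turned in direction. For differences given with an exact test, kept refers to direction and to whether the test passed, not to size. The contrast of CAP-D3-rich over CAP-D3-poor windows thus counted as kept at -0.03 in the other windows, against -0.29 in the dense windows. The causes were not tested. The log2 difference in the TFIIIC share of the dense windows turned with equal peak numbers (0.12) and covered bases (0.086), and ran from -0.066 to 0.0088 with a library left out. The genotype difference in the H3K27me3 ratio ran from -0.24 to 0.076 with a library left out. The count of members called was 4 for TFIIIC on chromosomes 1 to 19, 0 to 81 with a library left out, and 0 to 9 for H3K27me3. The H3K27me3 surplus and the mean of 8 lists kept their direction throughout.

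The condensin II folds stayed above 2.04. CAP-D3 gave 2.81 (WT) with windows chosen on WT libraries, 2.60 and 2.90 on Rb1L/L libraries, 3.16 (Rb1L/L) from position 500000, and 2.99 and 3.18 by covered bases, WT first. CAP-H2 gave 2.40 and 2.27 at a score of 100, 2.29 and 2.23 on WT libraries, 2.10 and 2.04 on Rb1L/L libraries, 2.41 and 2.35 by covered bases, and 2.13 and 2.06 against other windows with 5 peaks.

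Midpoints in TFIIIC peaks became larger shares when any overlap counted: 41.3 and 32.6% (CAP-D3, WT and Rb1L/L, dense), 23.4 and 16.7% (other), 46.1 and 45.6% (CAP-H2, dense), which nearly closes the gap between genotypes, and 18.2 and 15.7% (other). Requiring 50% cover gave 7.29% (CAP-D3, Rb1L/L, other), 24.0% (CAP-H2, WT, dense), 8.22% (WT, other) and 6.81% (Rb1L/L, other). Equal peak numbers gave 13.2% (CAP-D3, WT, other), 8.52 and 5.01% (CAP-D3, Rb1L/L, dense and other), 23.2 and 8.43% (CAP-H2, WT) and 18.4 and 4.77% (CAP-H2, Rb1L/L). TFIIIC regions of all libraries were 20.2% (dense) and 14.7% (other) with equal numbers, and 25.6 to 37.0% and 20.03 to 28.2% with a library left out.

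The contrast of CAP-D3-rich over CAP-D3-poor members, whose alternatives were chosen after seeing the data, ran from -0.37 to -0.20 within the dense windows. It was -0.03 in the other windows, which were not matched for TFIIIC count. Libraries of both genotypes carry the numbers 1 and 2, which the labels tie to no shared batch; deviations of same-numbered libraries correlated at 0.69 for TFIIIC and 0.40 for H3K27me3. With a replicate block limma called 0 members for TFIIIC and 0 for H3K27me3, and the contrast had an exact p of 0.5. Read depth, not known here, bounds what peak numbers can show between genotypes.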
